A study of Homo sapiens with 3 samples.

Results

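RARS and RPL7L1 are the genes described here, chosen because strong A-to-G positions in cells with the ADAR catalytic domain alone kept a similar level in cells with the DDX41 fusion. The members are every position that the 3 deposited site lists give under the name RARS or RPL7L1. They came to 36 of 16820 positions, 2 in RARS and 34 in RPL7L1, and to 2 of 4245 gene names. The levels in those libraries chose the genes, so they are given as a description with no test.

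The study used HyperTRIBE in THP-1, an established human monocytic leukemia line, with 1 library in each of 3 groups. The empty vector group received the pGK-GFP retrovirus with no editing domain. The ADARcd group received the same vector carrying the hyperactive ADAR catalytic domain, and the DDX41-ADARcd group received that domain joined to DDX41, a DEAD-box RNA helicase. All 3 shared the cell line, virus made in 293T cells, and a harvest of total RNA at day 7. The labels give no clone, no sorting for GFP and no measure of how many cells carried the virus. No group had a replicate library, so each difference below is one between libraries and cannot be read as one between conditions.

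ADAR enzymes deaminate adenosine to inosine in double-stranded RNA, and sequencing reads inosine as G. In HyperTRIBE the catalytic domain is tethered to an RNA-binding protein, and A-to-G positions mark RNA that came near it. Sites made by the untethered domain are the background of the method. RARS encodes the cytosolic arginyl-tRNA synthetase, which charges tRNA with arginine and sits in the multisynthetase complex. RPL7L1 encodes a relative of the ribosomal protein RPL7 and has been linked to assembly of the large ribosomal subunit. Repeats of the Alu family, which descend from 7SL RNA, are the main natural ADAR substrate of human transcripts, because neighbouring copies in opposite orientation can pair.

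The sequences around the strongest position of each gene are shown first, because their reference bases and surroundings separate the genes. They were read from GENCODE 29 transcripts on GRCh38, plus strand, 5′ to 3′, with the listed positions in capitals. A window with 3 neighbouring RPL7L1 positions is shown for comparison.
RARS, chr5:168510588-168510616: tttaaaacacgttcGggtgaaacagtgcg
RPL7L1, chr6:42888202-42888230: tggagcgcagtggcAtgatctcagctcat
RPL7L1 trio, chr6:42888290-42888318: tacatgcatgtAccAccAcacccagctaa
The RARS window carries a capital G: the reference base at that position is already the base counted as edited. All 34 listed RPL7L1 positions have A in the reference.

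RARS (ENSG00000113643.8) lies on chromosome 5 from 168486445 to 168519299 on the plus strand. Its strong position, chr5:168510602, is in coding exon 12 of 15 (168510581 to 168510686), 21 bases from the exon start. It is the third base of codon 456 of 660, and the G and A forms encode the same residue. In the ADARcd library 23 of 36 reads had G, or 63.9% (95% interval 46.2 to 79.2, exact Clopper-Pearson, as for all levels here). With DDX41-ADARcd 19 of 28 reads had G, or 67.9% (47.6 to 84.1). In the empty vector 0 of 10 reads had G and all 10 had A, which allows a level of up to 30.8% by the same interval or 30% by a floor of 3 reads. An empty vector at 0 is a condition of being listed. The similar levels with ADARcd and DDX41-ADARcd are what chose the gene. The difference between them was 3.97 percentage points (-19.0 to 25.6) and their ratio 1.06. Intervals and floors cover counting error only, since PCR reads without molecular identifiers are not independent molecules.

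The reference base sets the RARS position apart from nearly all others in the lists. Of 15372 listed positions on an annotated transcript of their strand, 15361 (99.9%) had reference A and 11 (0.0716%) had G. Of those 11, 2 had 10 or more edited reads in the library that listed them, the RARS position and 1 in HLA-B. Only 1 position with reference A reached 50% with 10 or more edited reads. Whether the G reads in RARS came from editing or from an allele was not tested, so the level is the share of reads with G and not a shown editing level.

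The other RARS position, chr5:168510644, is in the same exon, at the third base of codon 470, and has reference A. It had 1 edited read of 21 with DDX41-ADARcd (4.76%, 0.121 to 23.8) and 0 of 39 with ADARcd, which allows up to 7.69% by the floor. An A-to-G change there would not alter the encoded residue either. The libraries could not be told apart at this depth. RARS therefore had 1 position with more than a single read with G, the one with reference G.

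RPL7L1 (ENSG00000146223.14) lies on chromosome 6 from 42879618 to 42889925 on the plus strand. All 34 positions fell in 1 stretch of 2568 bases in the 3′ UTR of transcript ENST00000493763.5, whose last exon, 6 of 6, runs from 42886256 to 42889896. The deposited lists call 6 of them intronic, those from 42886829 to 42886879, which lie upstream of the last exon of the other main transcript, ENST00000304734.9.

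The strongest RPL7L1 position was chr6:42888216, base 1752 of that 3′ UTR. It had 29 edited reads of 82 with ADARcd (35.4%, 25.1 to 46.7), 16 of 69 with DDX41-ADARcd (23.2%, 13.9 to 34.9) and 0 of 16 in the empty vector, whose upper limit is 20.6%. The ADARcd and DDX41-ADARcd libraries overlapped in their intervals, with the fusion lower by value. The difference was -12.2 points (-25.8 to 2.5) and the ratio 0.656.

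The next position, chr6:42888380, lies 164 bases downstream at base 1916 of the 3′ UTR. It had 12 edited reads of 85 with ADARcd (14.1%, 7.51 to 23.4) and 9 of 53 with DDX41-ADARcd (17.0%, 8.07 to 29.8). The difference was 2.86 points (-9.00 to 16.4) and the ratio 1.20. The empty vector had 0 of 10 reads, an upper limit of 30.8%, so its depth could not separate it from either library here.

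**Figure D1:**
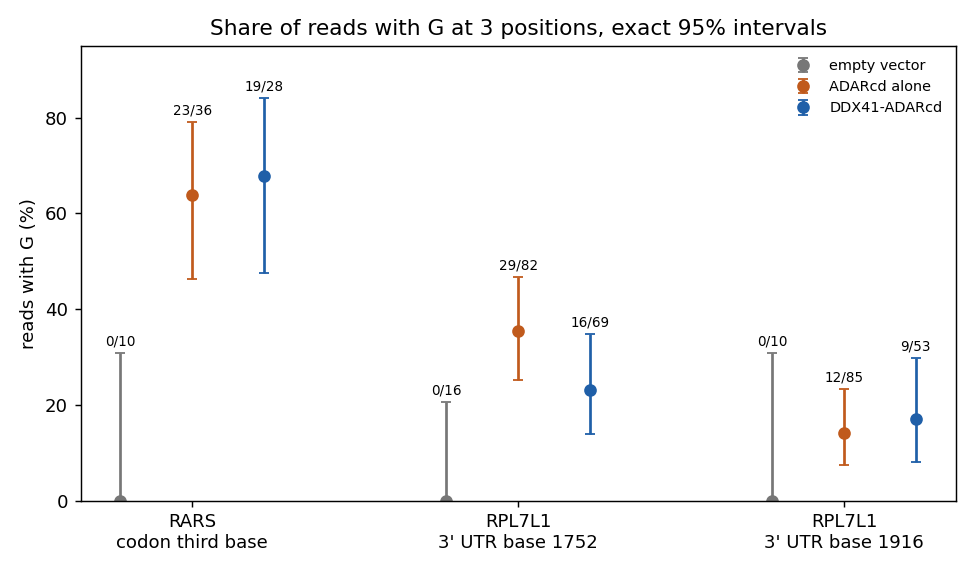
Percent of reads with G (vertical axis) in the 3 libraries at the RARS position and the 2 strong RPL7L1 positions, 1 library per group. Points are single libraries and bars are exact 95% intervals; the empty vector is at 0 with upper limits of 20.6% to 30.8%, and the ADARcd and DDX41-ADARcd intervals overlap at each position.

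Between these positions stood a row of weakly edited A. From 42888210 to 42888380, a run of 171 bases, 18 of 41 A (43.9%) were listed. Of these, 17 had edited reads with ADARcd, 8 with DDX41-ADARcd and 7 with both. The trio printed above shows the spread at single bases. Position 42888301 had 4 of 80 reads with ADARcd (5%) and 1 of 45 with the fusion (2.22%). Position 42888304 had 2 of 77 (2.60%) and 4 of 41 (9.76%, 2.72 to 23.1), a difference of 7.16 points (-1.53 to 20.1). Position 42888307 had 2 of 75 (2.67%) and 2 of 47 (4.26%). All 3 differences were within counting error, and their order by level was not the same in the libraries.

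Over the whole gene, RPL7L1 had edited reads at 22 positions with ADARcd and at 21 with DDX41-ADARcd. With 2 or more edited reads the numbers were 14 and 8, and 8 and 13 positions rested on 1 read. These sets are unlike, since fusion positions could enter through 2 lists and ADARcd positions through 1. In the lists against the empty vector alone the numbers were 22 and 11, or 14 and 6 with 2 or more edited reads. The ranges and medians below cover the same unlike sets. At the 9 positions edited in both libraries the fusion was higher at 6 and lower at 3 by value, and the interval of the difference spanned 0 at all 9. Apart from the 2 strong positions, levels ranged from 1.12% to 5.77% with ADARcd (median 2.28%, 20 positions) and from 1.47% to 9.76% with the fusion (median 2.33%, 19 positions). Over all RPL7L1 positions with listed reads, edited or not and the strong ones included, reads ranged from 51 to 96 with ADARcd (34 positions). They ranged from 37 to 69 with the fusion (21 positions) and from 10 to 21 in the empty vector (24 positions, 0 edited reads in all).

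How a position enters a list limits these counts. The lists hold only positions with edited reads in one library, none in its control and 10 or more control reads. At 13 RPL7L1 positions edited with ADARcd, no reads of DDX41-ADARcd are listed, so the depth of the fusion there is not known. A position edited in both the ADARcd and DDX41-ADARcd libraries with under 10 reads in the empty vector is in no list. The 12 positions found with the fusion at 0 edited reads in ADARcd include 42886841, with 3 of 45 reads (6.67%, 1.4 to 18.3) against 0 of 60, where the floor is 5%. Another is 42887422, with 2 of 52 reads against 0 of 73 and 0 of 11 in the empty vector. Position 42889282 had 2 of 63 reads against 0 of 84, and the remaining 9 had 1 edited read each.

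The listed RPL7L1 positions gathered in repeated sequence. A search of the transcript against itself found 4 copies of 1 repeat in the 3′ UTR, 3 in one orientation and 1 inverted. The inverted copy, 298 bases from 42888159 to 42888456, held 18 listed positions, both strong ones among them. The nearest copy upstream, 284 bases from 42887312 to 42887595, held 7. The first copy, 42886715 to 42887010, held 6, all found with DDX41-ADARcd and none with ADARcd, with no empty-vector reads listed. The last copy, 42889160 to 42889457, held 2, again with the fusion alone. Positions with edited reads in both ADARcd and DDX41-ADARcd need 10 empty-vector reads to be listed. The lists therefore cannot show shared editing in the first and last copies where that depth was not reached.

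The inverted copy matched each of the others in the opposite orientation. The match with the upstream copy spanned 292 aligned bases at 80.5% identity, with 563 bases between the arms. The matches with the first and last copies spanned 305 bases each, at 79.0% and 77.4% identity. Of the 34 listed positions, 33 (97.1%) lay in an inverted match, which holds 331 of the 980 A of the 3′ UTR (33.8%). The arms of the best pair held 25 of 34 (73.5%) and 149 of 980 A (15.2%). The 980 count every A, whether or not its depth allowed listing, and the depth at unlisted A is not known. The position outside was 42888552, with 2 of 96 reads in ADARcd. Part of the upstream arm matched RN7SL1, a 7SL RNA gene, over 67 bases at 89.6% identity on the same strand. The inverted arm matched it over 35 bases at 88.6% on the opposite strand. No repeat annotation was used, so these matches are the basis for describing the copies as related to 7SL RNA.

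**Figure D2:**
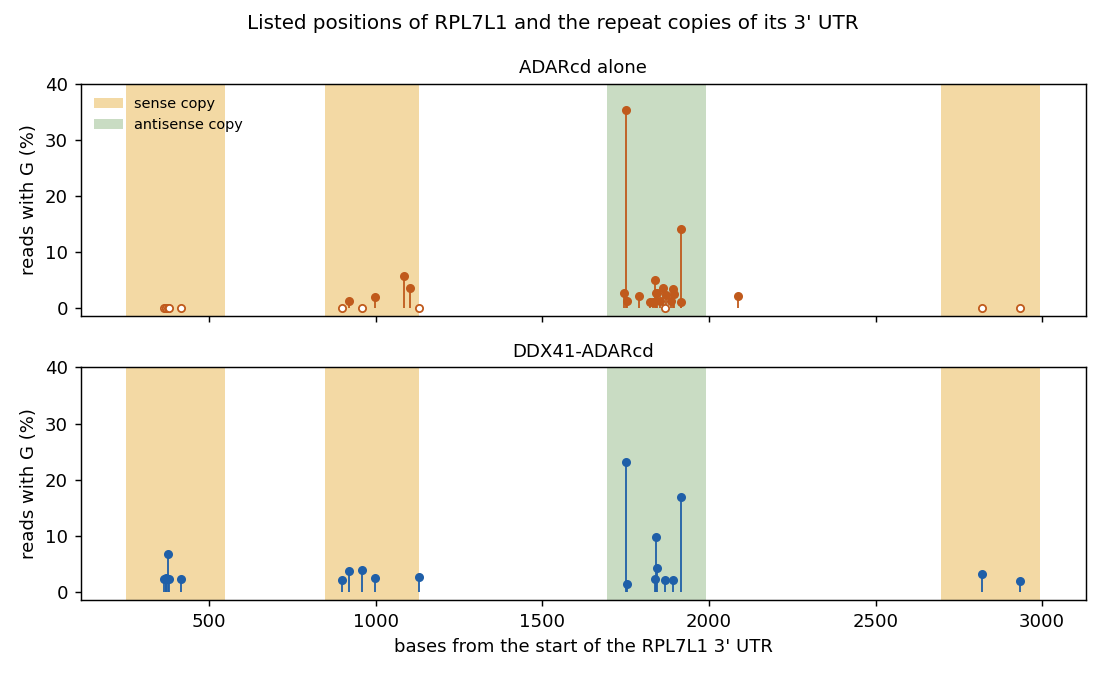
Percent of reads with G (vertical axis) along the 3′ UTR of RPL7L1 (horizontal axis, bases from the UTR start) for ADARcd and DDX41-ADARcd, 1 library each. Shading marks the 4 repeat copies and open circles mark 0 edited reads at a listed depth; the peak of 35.4% and most listed positions lie in the inverted copy, bases 1695 to 1992.

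In a predicted minimum free energy fold of the best pair of arms and the bases between (1135 bases), 85.9% of the upstream arm's bases paired with the inverted arm. In that fold 42888216 was unpaired, 42888380 paired with a T of the DNA sequence 1002 bases away, and 19 of the 25 listed positions in the arms were paired. In shorter windows of 100 bases each side, which do not reach the partner arm, both strong RPL7L1 positions were unpaired. With 50 bases each side 42888380 was paired, with a base 15 bases away, so its call turned with the window. In windows of 100 bases the RARS position, folded with its reference G, was paired with a base 17 bases away. The form with A was not folded. Among the strong positions of other genes 20 of 58 were paired in such windows. A fold is a prediction from sequence and no structure was measured.

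The bases next to the 3 strong positions varied. Over the strong positions of other genes, the base before a strong position was T at 37 of 58 and the base after was G at 32 of 58, with both at 16. The RARS position had C before and G after. The RPL7L1 positions had C before and T after at 42888216, and A before and C after at 42888380. RARS thus shared its following base with 32 of those 58, and none of the 3 had T before. Over all 34 listed RPL7L1 positions, G before was less frequent by value than at unlisted A of the same stretch (11.8% against 24.6%), and G after was too (20.6% against 29.5%).

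Among strong ADARcd positions, defined as at least 10 edited reads and at least 5%, the members stood high in the ratio of the fusion to ADARcd, as their choice required. There were 61 such positions, of which 37 were listed with reads of the fusion. The median ratio was 0.11 over the 37 and 0.0948 over the 34 in other genes (0.0104 to 1.01). With a minimum of 5 edited reads and no minimum level it was 0.218 over 78 positions. RPL7L1 42888380 had the highest ratio, RARS the second and RPL7L1 42888216 the eighth. In level, RARS ranked first, RPL7L1 42888216 sixth and 42888380 30th with ADARcd, and with DDX41-ADARcd their ranks were 1, 2 and 3. Just under the minimum, with 8 or 9 edited reads, were 13 positions, of which 5 were listed with the fusion.

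The other positions with a ratio of at least 0.5 numbered 7, 1 in HLA-B and 6 in SPN. HLA-B, a class I antigen-presenting molecule, had 27 of 209 reads with ADARcd (12.9%) and 19 of 146 with the fusion (13.0%). It is the position with reference G named above beside RARS. SPN, the leukocyte surface sialoglycoprotein CD43, had ratios of 0.821, 0.767, 0.700, 0.688 and 0.598 at the 5 positions closest to 1. The lowest ratios were in RPS3A (0.0104), FTL (0.0204) and EEF1A1 (0.0227), which encode a ribosomal protein, the ferritin light chain and a translation elongation factor.

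When the 61 strong positions were grouped by these sequence features, a grouping chosen after the values were seen and so without a test, the members fell with the higher ratios. The 2 with reference G, RARS and HLA-B, had ratios of 1.06 and 1.01. The 10 with an inverted match in their own transcript, 2 in RPL7L1, 6 in SPN, 1 in PAICS and 1 in MCM4, were all listed with the fusion, at ratios from 0.248 to 1.20 (median 0.672). These 2 groups include RARS and the 2 RPL7L1 positions, which were chosen for their ratios. Among the remaining inverted matches, the 6 in SPN had ratios from 0.5745 to 0.821, MCM4 0.325 and PAICS 0.248. PAICS rested on 1 edited read of 25 with the fusion. Of the other 49, 25 were listed with the fusion, at ratios from 0.0104 to 0.246 (median 0.0690). Depth differed as well: the median reads with ADARcd were 130 in the inverted-match group, 457 over the 25 others listed with the fusion and 230 over all 49 others. At low depth 1 edited read already gives a higher level, and the part of depth in these ratios was not tested over the group. Among positions with at most 100 reads in ADARcd, 13 in all, 6 were listed for both libraries, and the 3 of other genes had ratios from 0.0819 to 0.248 (median 0.121).

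**Figure D3:**
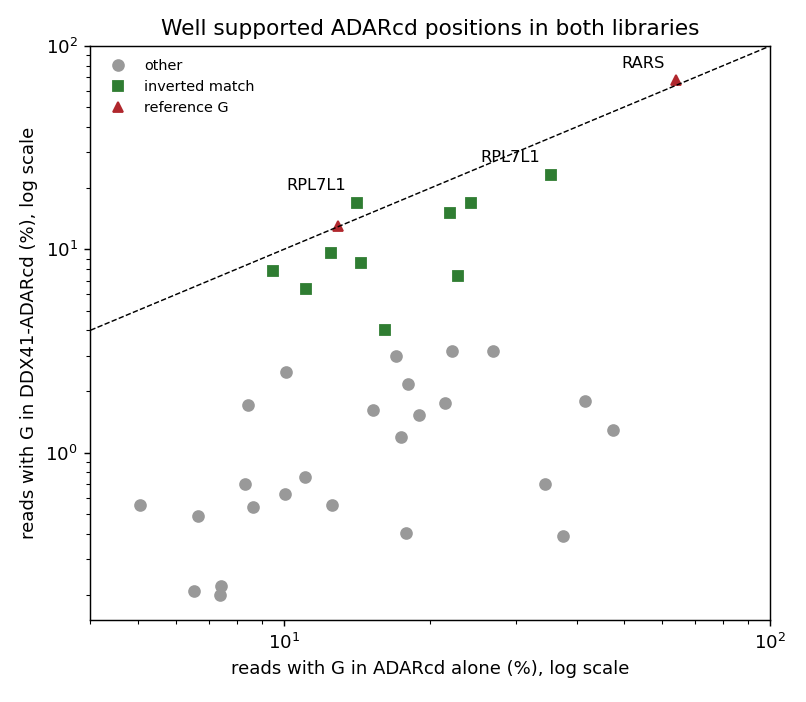
Level with DDX41-ADARcd (vertical axis, percent) against level with ADARcd (horizontal axis, percent), both on log scales, for the 37 strong positions listed with both libraries. The dashed line marks equal levels; triangles (reference G: RARS and HLA-B) lie on it, squares (inverted match, the 2 labelled RPL7L1 positions among them) span ratios from 0.248 to 1.20, and grey circles (other) lie below, at 0.0104 to 0.246.

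The background of calls comes from a two-sided Fisher's exact test over all positions covered by 10 or more reads on both sides, at a Benjamini-Hochberg adjusted p under 0.05. ADARcd was higher than the empty vector at 13 of 6412 positions (0.203%), and DDX41-ADARcd at 0 of 3512 (0%). DDX41-ADARcd was lower than ADARcd at 26 of 9227 (0.282%) and higher at 0. Listing set these directions in advance. Listed positions have 0 edited reads in the control, so against the empty vector only higher could be called. In the third comparison lower was possible only at added positions, those listed for both ADARcd and DDX41-ADARcd against the empty vector. None of the members was among the calls, with 1, 1 and 2 RARS positions and 22, 11 and 21 RPL7L1 positions tested in those comparisons. The members' levels chose them, so nothing is read from that count, which also reflects 10 to 21 reads in the empty vector.

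Reads at a position were not used in choosing the genes and show how far each transcript was covered. At RPL7L1 the reads of DDX41-ADARcd over those of ADARcd had a median of 0.708 (0.522 to 0.842, 21 positions). Over 1180 genes with at least 3 such positions the median was 0.657, with 0.465 and 0.912 as the 5th and 95th percentiles, and RPL7L1 ranked 379th. RARS had 0.538 and 0.778 at its 2 positions. Both genes lay inside the common range. Against this, DDX41 had 104 to 274 reads with the fusion (median 236) and 20 to 48 with ADARcd (median 32) over 23 positions, a median ratio of 6.93 and the highest of all. DDX41 reads were thus higher in the library labelled DDX41-ADARcd, a check of its label. At 5 positions of ADARB1, which encodes the editing enzyme ADAR2 and was singled out after its value was seen, the median ratio was 0.217. Whether those reads came from the construct, and their part in the levels above, was not tested. In bulk RNA, fewer cells with the construct and less of it per cell cannot be told apart.

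**Figure D4:**
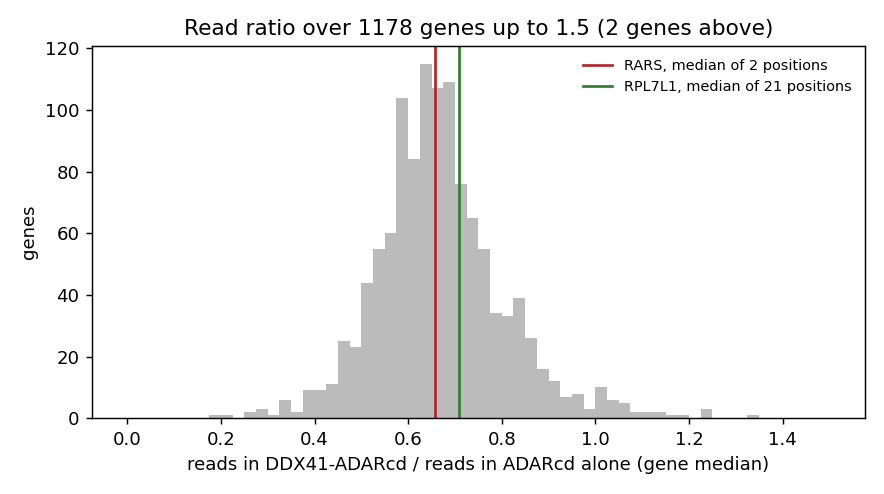
Number of genes (vertical axis) by the median ratio of reads in DDX41-ADARcd to reads in ADARcd (horizontal axis), for 1180 genes with at least 3 positions, of which 2 lie above the axis limit of 1.5. The lines for RPL7L1 at 0.708 and for RARS at 0.658, the median of its 2 positions, fall within the bulk of genes.

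For the empty vector the same ratio to ADARcd was 0.192 at RPL7L1 (0.104 to 0.269, 22 positions), above the median of 0.116 over 626 genes, and 0.278 at the RARS position. Listing needs at least 10 empty-vector reads, so low ratios cannot appear in genes with few reads, as these are.

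RPL7L1 was dense in listed positions for its depth. In the list of ADARcd against the empty vector its 22 positions ranked 44th of 1258 genes, and its 14 positions with 2 or more edited reads ranked 7th, beside ACTB, CAP1, EEF1A1, EEF2, SPN and TALAM1 with as many or more. Its median of 82.5 reads was the lowest of those 7 genes (median 664). Positions with 2 or more edited reads made up 63.6% of its entries there and 25.3% of all entries. With DDX41-ADARcd against the empty vector it had 11 positions, 6 of them with 2 or more edited reads (54.5% against 18.5% of all entries). Its median of 48 reads was the lowest of the 65 genes with as many positions. In the list of the fusion against ADARcd, by contrast, it had 12 positions, 3 with 2 or more edited reads (25% against 16.2%), and 32 of the 100 genes with as many positions had fewer reads.

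The relatives of RARS carried few edited reads. Of 24 genes for cytosolic aminoacyl-tRNA synthetases and their complex, 10 had a listed position with ADARcd against the empty vector (17 positions), 16 with the fusion against ADARcd (42 positions) and 4 with the fusion against the empty vector (12 positions). RARS itself is among them. The medians were 1.15%, 2.41% and 1.48%, beside 0.435%, 3.70% and 0.515% over all entries of those lists, and none was called in any comparison, beside the background above. Depth differed too, with median reads of 88, 42.5 and 74.5, beside 285, 29 and 220 over all entries. Most positions rested on 1 edited read, where fewer reads give a higher level, so no difference in editing is read from these medians. TARS, the threonyl enzyme, had most positions, 5, 10 and 5, with at most 2 edited reads, of 89 (2.25%), against ADARcd. EPRS, the joint glutamyl and prolyl enzyme, had 3, 7 and 5, with at most 2, of 125 (1.60%), in ADARcd. No synthetase other than RARS had more than 2 edited reads at any listed position. For RARS the larger counts are reads with G at its position with reference G, not a shown editing level. Its position with reference A had 1 edited read of 21 with the fusion. Of 17 mitochondrial synthetases 1, 3 and 0 had a listed position, with at most 2 edited reads, of 69 (2.90%), in IARS2 with ADARcd, and RARS2 had none.

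The relatives of RPL7L1 also carried few edited reads per position. Of 52 genes for large-subunit assembly factors and RPL7 relatives, 9, 28 and 5 had listed positions in the same order of lists, with 48, 87 and 29 positions and no call. The median levels were 1.20%, 5.26% and 0.386%, at median reads of 88, 21 and 419, so these levels too depend on depth. RPL7L1 supplied 22, 12 and 11 of the positions and is included in these medians. RPL7, the ribosomal protein that gives the family its name, had 12, 4 and 6 positions but at most 3 edited reads of 825 (0.364%) with ADARcd and 2 of 518 (0.386%) with the fusion. RPL7A, another large-subunit protein, had 6, 10 and 10, with at most 2 edited reads of 1154 (0.173%) and of 943 (0.212%). GNL3L, a nucleolar GTPase, had 22 positions in the list of the fusion against ADARcd, with at most 2 edited reads, of 9. No gene of this list other than RPL7L1 had more than 3 edited reads at any listed position.

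Reads per listed position had a median of 286 in ADARcd and 27 in the empty vector for their comparison, and 220 and 30 for the fusion against the empty vector. For the fusion against ADARcd they were 30 and 45, and 74.8% to 83.9% of positions in the 3 lists rested on 1 edited read. Of 15 monocytic markers 9 had a listed position, CD68, LYZ, AZU1, ELANE, CTSG, CSF1R, SPI1, FCER1G and TYROBP, while CD14, CD33, MPO, ITGAM, CD36 and CSF2RA had none. None of the T-cell, B-cell, erythroid and epithelial markers (3 each) or fibroblast markers (2) had one. A gene without a listed position can still be expressed, so this checks the cell type in part only.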

How the data were processed

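RNA editing was measured by HyperTRIBE RNA sequencing in 3 THP-1 libraries, 1 per group, grouped by the transgene in the labels. The deposited values are counts: per the file headers, counts of reads with each base at a position in a first library and in its control, not normalized. The submitters' processing notes name CASAVA 1.4, FastQC 0.11.7, STAR 2.5 and mm10; the positions match human GRCh38 transcripts. The site caller is not given in the sources used here. Because columns are unnamed, each list's title set the order, with the first library read as edited and the gDNA/wtRNA columns as control; reads of a library agreed between lists at 3516 of 3516 shared positions.

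A level is the share of reads carrying the edited base, in percent, with an exact 95% interval. Intervals of differences and Fisher tests (minimum 10 reads per library, Benjamini-Hochberg, threshold 0.05) compare libraries, not conditions. Only the Fisher tests were tried on simulated data. Control edits were drawn freely there, unlike in the lists, which hold only positions with none in the control. Sequences came from GENCODE 29, matches from blastn 2.17.0 (e-value at most 1e-05) and folds from RNAfold 2.7.2, with Python 3.11.15, pandas 2.3.3 and scipy 1.17.1.

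Besides all members, the text names the 6 strong shared positions of other genes with a ratio nearest 1, the 3 with the lowest, DDX41, and up to 4 genes of each list with most positions. The members and lists were chosen with earlier results of these data known. The comparison of reference bases, the inverted matches, the grouping by them, and ADARB1, PAICS and MCM4 were added after seeing the data. Alternatives were other minimums of reads and edited reads, unlisted positions as 0, halved reads, Bonferroni adjustment, other fold windows, reference A only and a stricter match. The sequences around some positions are not reported here.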

Additional observations from a re-analysis of the deposited data

How the results depend on the processing

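Over 28 results and 50 alternatives, 39 values were counted as kept and 11 as moved, and reversal was not checked. Kept meant inside an interval, inside a range or standard deviation over positions, or within a set factor for counts. These margins are not all error bounds. Halving divided edited and total reads alike, so the levels at RARS 168510602 and RPL7L1 42888216 and 42888380 could change only by rounding. With reads halved they were 61.1% and 64.3%, 34.1% and 23.5%, and 14.3% and 15.4% for ADARcd and DDX41-ADARcd. Nothing about their stability is read from that. The median ratio of strong shared positions was 0.11 over 37 positions. It was 0.218 over 78 with at least 5 edited reads and no minimum level. Each setting changes which positions enter. With unlisted ones as 0 it was 0.0319 over 61, and with at most 100 reads in ADARcd 0.452 over 6. Of those 6, 3 are the members, chosen for high ratios, and the other 3 had a median of 0.121. With at least 2 edited reads, positions fell from 17 to 2, 42 to 5 and 12 to 3 for the cytosolic synthetases. For the mitochondrial ones they fell from 3 to 0 (the fusion against ADARcd). For the assembly factors they fell from 48 to 19, 87 to 17 and 29 to 8. RPL7L1 itself supplied 14, 3 and 6 of those left. Calls of ADARcd against the empty vector fell from 13 to 7 with reads halved. Energy per base at RPL7L1 42888216 was -0.398 with 50 bases each side against -0.335 with 100; the cause was not tested. A stricter match left 9 of 10 strong positions with an inverted match. No paired analysis was possible because each group has 1 library. The empty vector's 10 to 21 reads limit its comparison with every member.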
